A study of Mus musculus with 2 samples.

Results

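Myeloid C-type lectin receptors are a family of surface proteins that carry a C-type lectin-like domain and that myeloid cells use to sense microbial sugars and glycolipids and the debris of dead cells. Here 8 genes were taken as members: Clec4d, Clec4e, Clec4n, Clec4a2, Clec5a, Clec7a, Clec10a and Clec12a. A member was read from the Affymetrix probe sets that the platform annotation gives to that gene alone. This yielded 10 probe sets of 45037 on the array, for 7 of the 8 genes and of the 18193 genes named this way. Clec12a, which encodes an inhibitory receptor, had 0 such probe sets and is not analysed here.

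The samples were mouse bone marrow cells from the femurs of C57BL/6 mice, grown in medium with 5% FBS. One was exposed for 4 days to tumour cells of the ID8 line (also spelled 1D8 in the labels), a mouse ovarian surface epithelial tumour line, which sat in the upper chamber of 24-well transwell plates. Its title calls the inducer a supernatant and the cells MDSC, that is myeloid-derived suppressor cells, immature cells of the myeloid lineage that dampen T cell responses. The other is labelled as control bone marrow cells with no tumour cells named, and both carry the phenotype label CD11b+Gr1+. Neither the age of the mice, nor how many were used, nor how long the control was cultured is given in the sources used here.

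Each group had 1 array, so no value has a replicate error and no test between groups was possible. The number of arrays limits the precision of every value. The control could not be set beside the induced cells gene by gene, because its signals stood in descending order down the list of probe sets. Only 6.9% of its 45036 steps from one row to the next went up, while the ID8-induced column went up at 49.9%, and within the values at or above its last one (91.67), and likewise within those below it, 0 rises were found. No fold change is given for any receptor, and every value below describes the ID8-induced cells only. It shows neither a rise nor a fall with the tumour cells. In a bulk sample such as this, fewer cells of a type and less RNA per cell cannot be told apart.

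The receptors differ in how they signal. Clec4e (Mincle), Clec4d (MCL) and Clec4n (Dectin-2) couple to the Fc receptor gamma chain, encoded by Fcer1g, and Clec5a (MDL-1) couples to DAP12, encoded by Tyrobp. Clec7a (Dectin-1), the receptor for fungal beta-glucan, carries a tyrosine motif of its own. All of these recruit the kinase Syk, and through Card9, Bcl10 and Malt1 they switch on NF-kB and genes of inflammation. Clec4a2 (DCIR) instead carries an inhibitory motif that binds phosphatases, and Clec10a (MGL1) binds galactose-type sugars and is known as a receptor of macrophages and dendritic cells.

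Of the 10 member probe sets, 9 lay at or above the signal floor of 68.77. The floor is the 40th percentile of the array, used because the deposited table holds no detection calls, and 60% of all probe sets pass it. A percentile states how much of the array, in percent of probe sets, was dimmer than a given signal. At or above the 90th percentile (a signal of 619.81) were 7 of the 10, where 10% of all probe sets lie. The median member probe set read 726.12, at percentile 91.3, while the median of the whole array was 89.52. By gene, taking the brightest probe set, 6 of 7 members passed the floor, as did 71.3% of all named genes, and 5 of 7 reached the 90th percentile, as did 14.8%. The members and the lists below were chosen with earlier results of these data known. Their counts are set beside the shares of all genes as description and not as a test. How well a probe set hybridises also sets its signal, so the members are described side by side and are not ranked by the amount of transcript.

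**Figure D1:**
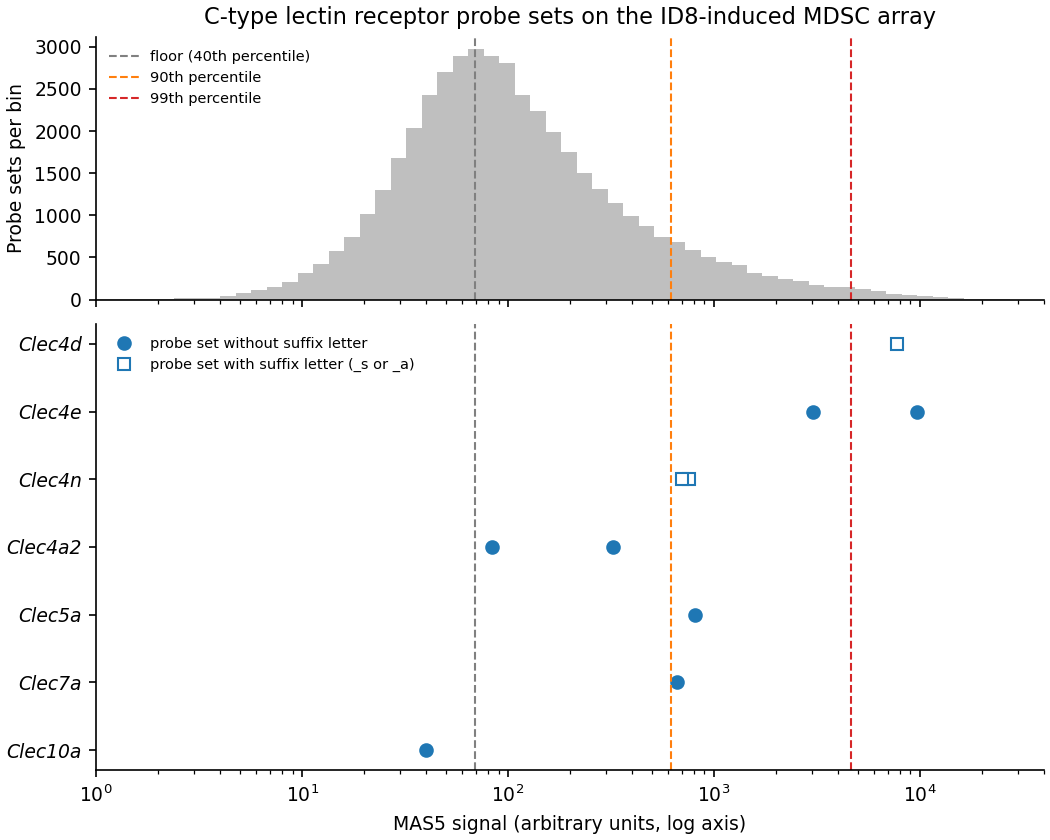
Upper panel: number of probe sets of the ID8-induced MDSC array in each bin of MAS5 signal (log axis, arbitrary units). Lower panel: each point is 1 probe set of a member, filled circles without and open squares with a suffix letter, and dashed lines mark the floor (68.77), the 90th percentile (619.81) and the 99th percentile (4651). Clec4d and the brighter Clec4e probe set lie beyond the 99th percentile line, and Clec10a lies below the floor.

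The strongest member signals came from the adjacent genes Clec4e and Clec4d. Mincle, the product of Clec4e, recognises mycobacterial cord factor and the spliceosome protein SAP130 (encoded by Sf3b3) released by dying cells, and MCL, the product of Clec4d, pairs with it at the cell surface. The probe sets of Clec4e read 9739.85 and 3038.77, at percentiles 99.8 and 98.1. Only 97 probe sets of the array were brighter than the first of these. Clec4d read 7726.79 on its single probe set, at percentile 99.6, with 164 probe sets brighter. By their brightest probe sets these were the 2 members at or above the 99th percentile, a level that 1.39% of all named genes reached. The Clec4d probe set has the suffix s, which Affymetrix gives to sets whose probes also match transcripts of another gene. Without it Clec4d would have no value, and whether another transcript added to its signal was not tested.

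Clec4n, Clec5a and Clec7a formed a middle group just past the 90th percentile. Dectin-2, encoded by Clec4n, binds fungal mannans, and its probe sets read 753.67 and 698.58, at percentiles 91.7 and 91. Both carry a suffix letter, s for the first and a for the other, the latter marking several transcripts of the same gene. Clec5a read 808.04, at percentile 92.2. Its product MDL-1 is known as an activating receptor of myeloid cells and, in viral infection, as a receptor for dengue virus. Clec7a read 659.33, at percentile 90.5. The 4 probe sets of these 3 genes thus lay between 659.33 and 808.04. They have no replicate error with which to tell them apart.

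The inhibitory receptor Clec4a2 gave an unsettled level. Its probe sets read 322.14, at percentile 82.4, and 83.26, at percentile 47.3. The dimmer one was not far above the floor and below the median of the array, 89.52.

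Clec10a was the single measured member below the floor. Its probe set read 40.18, at percentile 21, so that 35550 probe sets of the array were brighter. A signal below the floor does not show that the transcript was absent.

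Agreement between probe sets of the same gene is the one internal check that this array offers. It could be made for 3 members, and the other 4 measured members had 1 probe set each. The brighter Clec4n probe set read 1.08 times the dimmer one, and 93.9% of the 4695 genes with exactly 2 probe sets were at least as far apart. For Clec4e the ratio was 3.21, a distance matched or passed by 30.4% of such genes. For Clec4a2 it was 3.87, matched or passed by 23.8%. The median ratio over those genes was 2.12, with quartiles of 1.39 and 3.75, and it was 3.03 for the 768 of them whose brighter probe set reached the 90th percentile. The Clec4n sets were therefore closer together than in most genes, and those of Clec4a2 lay just outside the upper quartile. The ratio mixes noise with differences in hybridisation and does not measure the spread between cultures.

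**Figure D2:**
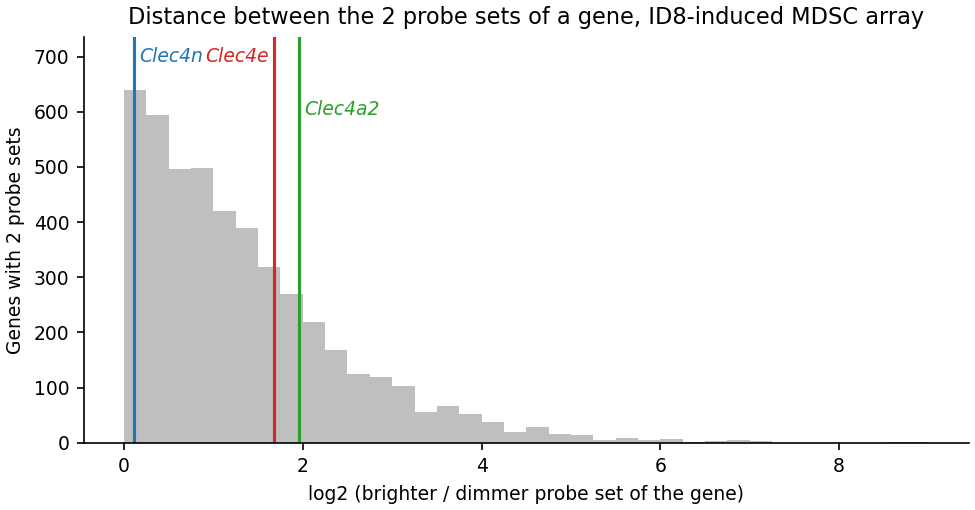
Histogram of the log2 ratio of the brighter to the dimmer probe set for the 4695 genes with 2 probe sets on the ID8-induced MDSC array, with the number of genes on the vertical axis. Vertical lines mark Clec4n (ratio 1.08), Clec4e (3.21) and Clec4a2 (3.87).

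Several of the members are neighbours in the genome, a feature that played no part in their choice. By the RefSeq genes of GRCm38.p6, 7 of the 8 lie on chromosome 6 and 1, Clec10a, on chromosome 11. Clec4a2, Clec4n, Clec4d and Clec4e belong to a run of 9 protein-coding genes from Clec4a1 to Clec4e, all of the same family. Of these 9 genes, 6 had a probe set of their own and 5 of the 6 passed the floor, as did 71.3% of all named genes. At the end of the run stand Clec4n, Clec4d and Clec4e next to each other. All 5 probe sets of these 3 were at or above the 90th percentile, where 10% of all probe sets lie. Towards the other end of the run, Clec4a3, a relative of Clec4a2, read 390.2, at percentile 85, and Clec4b1, next to Clec4a2, read 46.48, below the floor. Neighbouring genes of this run are similar in sequence, and cross-hybridisation among them was not tested.

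Clec7a and Clec12a belong to a second run on chromosome 6, of 7 genes from Clec12a to Olr1. Next to Clec7a, Olr1, which encodes the oxidised low-density lipoprotein receptor LOX-1, read 660.77, at percentile 90.5 like Clec7a itself. Its neighbour on the other side, Clec1a, read 57.07 and 52.16, both below the floor. Clec12b read 53.78, below it too, and Clec1b, a receptor known from platelets, read 107.79. Within this run the measured signals at the 90th percentile were those of the adjacent genes Clec7a and Olr1, and the other 3 measured genes lay at or below percentile 56.6. On chromosome 11, Clec10a and its neighbour Mgl2, the related galactose-type lectin, were both below the floor, with Mgl2 at 44.79. The next gene on the other side, Slc16a11, a transporter that is no lectin, read 391.51. Clec5a stands alone on chromosome 6, between an olfactory and a taste receptor gene that are not analysed here.

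**Figure D3:**
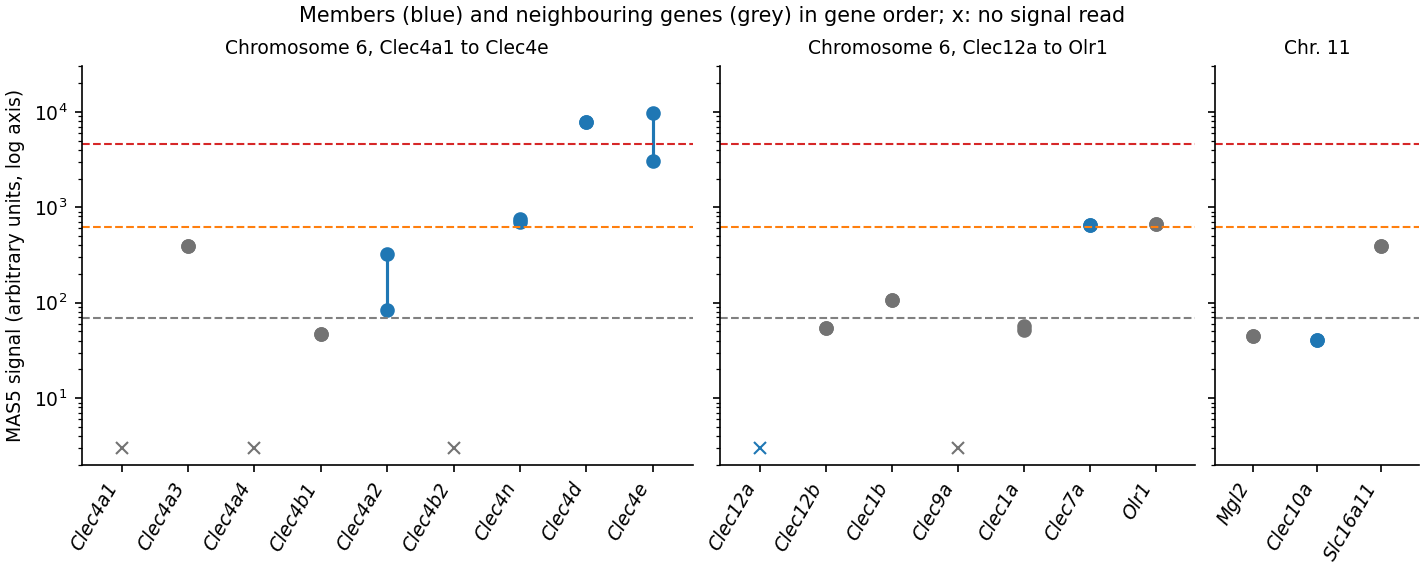
MAS5 signal (log axis, arbitrary units) of members (blue) and other genes (grey) in the order of the genes on the chromosome, with a point for the brightest and dimmest probe set of each gene, a line joining them, and a cross for a gene with no signal read. Dashed lines mark the floor (grey), the 90th (orange) and the 99th (red) percentile. Clec4n, Clec4d and Clec4e, next to each other, lie above the 90th percentile line, and Mgl2 and Clec10a both lie below the floor.

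The 250 bases before the RefSeq start of 5 measured members are printed in full. They are the control regions nearest to Clec4e and Clec4d, with the strongest signals, and to Clec5a and Clec7a of the middle group. The window of Clec4a2, a gene of the same run as Clec4e and Clec4d with an unsettled level, is also given. No upstream sequence was available for Clec4n and Clec10a. The printed stretches are RefSeq sequences of GRCm38.p6, 5′ to 3′ on the strand of the gene. Capitals mark matches on either strand. The motifs are GAGGAA (a core bound by PU.1 and related ETS factors of myeloid cells), TTGCNNAA (a core bound by C/EBP factors) and TGANTCA. The last is a loose form of the AP-1 site, since N stands for any base.
Clec4e (chr6:123289872-123290121, minus strand): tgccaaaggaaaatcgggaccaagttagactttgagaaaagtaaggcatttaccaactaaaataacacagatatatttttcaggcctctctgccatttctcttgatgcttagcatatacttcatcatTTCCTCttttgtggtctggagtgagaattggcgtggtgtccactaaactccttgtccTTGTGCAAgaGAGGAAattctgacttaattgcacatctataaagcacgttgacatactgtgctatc
Clec4d (chr6:123261857-123262106, plus strand): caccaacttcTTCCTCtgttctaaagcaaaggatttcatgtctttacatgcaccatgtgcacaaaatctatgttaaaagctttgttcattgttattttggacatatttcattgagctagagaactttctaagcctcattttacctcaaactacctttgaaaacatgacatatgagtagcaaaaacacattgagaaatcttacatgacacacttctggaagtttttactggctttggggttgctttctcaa
Clec5a (chr6:40585806-40586055, minus strand): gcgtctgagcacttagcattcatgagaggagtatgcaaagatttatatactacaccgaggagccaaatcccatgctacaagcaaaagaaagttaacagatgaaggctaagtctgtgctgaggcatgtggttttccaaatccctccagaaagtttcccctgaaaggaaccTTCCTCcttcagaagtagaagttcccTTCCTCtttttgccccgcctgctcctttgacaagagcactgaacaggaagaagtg
Clec7a (chr6:129472780-129473029, minus strand): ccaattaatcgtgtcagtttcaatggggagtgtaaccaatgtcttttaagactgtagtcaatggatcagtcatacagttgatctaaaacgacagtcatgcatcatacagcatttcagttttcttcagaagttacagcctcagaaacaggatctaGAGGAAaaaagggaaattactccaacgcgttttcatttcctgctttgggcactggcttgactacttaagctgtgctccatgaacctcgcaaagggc
Clec4a2 (chr6:123122440-123122689, plus strand): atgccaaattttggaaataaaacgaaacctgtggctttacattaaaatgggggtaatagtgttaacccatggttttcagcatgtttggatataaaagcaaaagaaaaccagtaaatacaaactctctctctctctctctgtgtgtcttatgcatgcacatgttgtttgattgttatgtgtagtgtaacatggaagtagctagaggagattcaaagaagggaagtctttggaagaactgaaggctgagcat

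Clec4e held 3 of these matches. One GAGGAA match began 123 bases and another 56 bases before the start, and between them the C/EBP core TTGTGCAA began 66 bases before it. Mincle was described in mouse macrophages as a target of C/EBP beta. Clec5a had GAGGAA matches beginning 81 and 55 bases before its start, Clec7a 1 beginning 96 bases before, and Clec4d 1 beginning 240 bases before. In the Clec4a2 window none of these motifs occurred. Among the first listed promoters of 27025 genes, windows of the same length held GAGGAA in 23.1%, TTGCNNAA in 9.55% and TGANTCA in 6.87%. None of the matches overlaps another in the sequences shown. A match is a run of letters and says nothing of binding in these cells.

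The partners through which the activating members signal were read from a list of 16 adaptors and kinases, of which 12 had a probe set of their own. By the brightest probe set all 12 passed the floor (71.3% of all genes did) and 7 reached the 90th percentile (14.8% did). The median gene stood at percentile 96, against 61.4 for all named genes. By the dimmest probe set 11 passed the floor, with Vav2 at 57.25 below it. Fcer1g, the adaptor of Clec4e, Clec4d and Clec4n, read 11533.86. Tyrobp, the adaptor of Clec5a, read 10321.86, and both lay beyond the 99th percentile. Next came Bcl10 at 2757.53 and Prkcd, the kinase that acts between Syk and Card9, at 2599.55. Syk read between 838.8 and 2143.01 over 4 probe sets, all past the 90th percentile. Hcst, which encodes DAP10, another partner of Clec5a, read 568.41, at percentile 89.2. The other 4 genes of the list are not analysed here.

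Of 7 phosphatases and ubiquitin ligases that restrain such receptors, all passed the floor and 4 reached the 90th percentile, with a median percentile of 91.9. Among all named genes, also by the brightest probe set, 71.3% and 14.8% did so. Ptpn6, which encodes SHP-1, a phosphatase recruited by inhibitory receptors such as Clec4a2, read 2788.54 and 2655.3. The ubiquitin ligase gene Cbl read 1561.58 on its brightest and 263.76 on its dimmest probe set. Inpp5d, which encodes the lipid phosphatase SHIP1, read 894.24 and 268.96, so that these genes reached the 90th percentile on some of their probe sets and not on others. Ptpn11, which encodes SHP-2, read 772.79 on the brightest and 62.39 on the dimmest of its probe sets, the latter below the floor. By their medians, the partners of activation and of restraint both stood above the median of all named genes.

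Genes that the Syk and Card9 route is known to switch on gave 12 of 13 signals above the floor, 4 of which lay at the 99th percentile or beyond. Among all named genes 71.3% and 1.39% did so. The 4 genes were the chemokine genes Ccl3 at 16508.29 and Cxcl2 at 13278.67, Il1b at 6332.12, and Ptgs2 (cyclooxygenase 2) at 4732.14. Egr2, an early response factor, was the gene below the floor, at 33.48. Il23a read 76.55, at percentile 44.2 and near the floor, and Il12b read 184.23 and 52.64, the latter below the floor. Of the 13 response genes, 8 reached the 90th percentile, as did 14.8% of all named genes. Many other receptors drive the same genes, and nothing here ties them to the lectins. Among self proteins described as ligands, Anxa1 (annexin A1) read 6656.04 on one probe set and 50.11 on the other, Anxa5 (annexin A5) 1674.99 and Lgals9 (galectin 9) 1606.41, and Anxa13 was below the floor at 40.57. Sf3b3, which encodes the ligand of Mincle and was added after the data were seen, read 167.74 and 116.27. The gene with the symbol Sap130 had been listed in its place, but it encodes another protein, of the Sin3A complex. Sap130 is not described as a ligand here, but it stays in the plotted list of self ligands and in the main count of pathway genes.

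**Figure D4:**
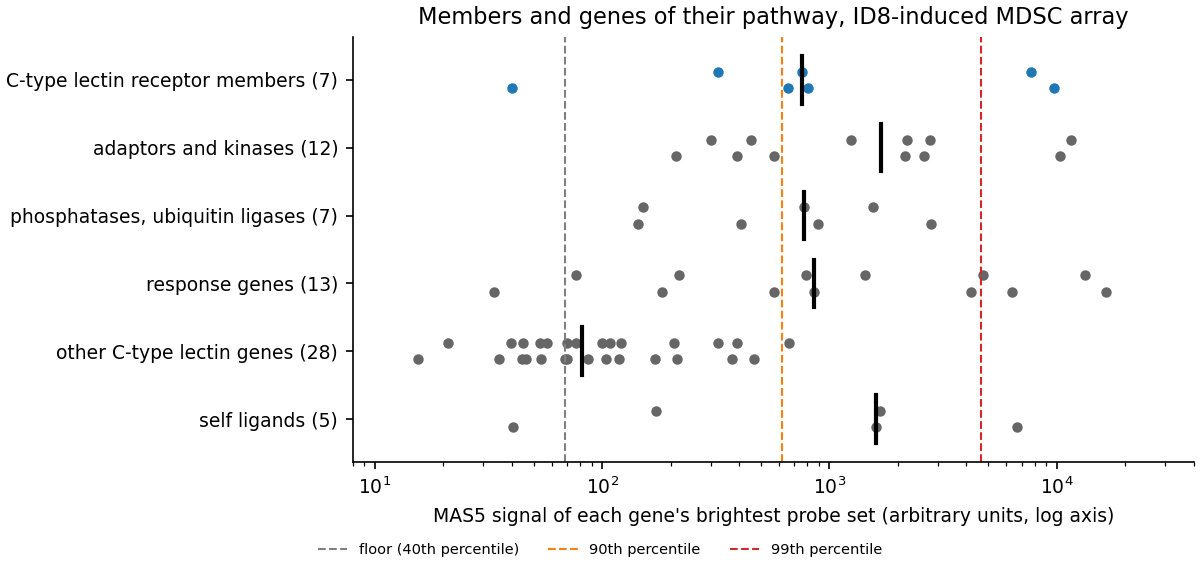
MAS5 signal of the brightest probe set of each gene (log axis, arbitrary units) for the 7 measured members (blue) and 5 lists of genes of their pathway (grey), with the number of genes in brackets. Black bars are medians and dashed lines the floor, the 90th and the 99th percentile. The list of self ligands includes the gene Sap130, which encodes no ligand of Mincle. The 28 other C-type lectin genes centre near the floor, and 1 of them passes the 90th percentile.

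Other genes with a C-type lectin-like domain gave lower signals as a list. Of 28 measured genes, 17 passed the floor, a share below the 71.3% of all genes, and 1 reached the 90th percentile, the neighbour Olr1. Their median percentile was 46.4 against 61.4 for all named genes. After Olr1 the strongest were Cd72, an inhibitory receptor of B cells, at 466, Clec4a3 at 390.2 and Cd302 at 372.92 (124.44 on its dimmer probe set). The 6 weakest below the floor were Colec12 at 15.42, Cd209e at 21.06, Mrc1 (the macrophage mannose receptor) at 35.06, Cd209d at 39.56, Clec14a at 44.4 and Mgl2 at 44.79. The members were listed as myeloid receptors. The other genes include receptors of lymphocytes, platelets and endothelium, but also the macrophage receptor Mrc1, below the floor. The lists are thus not divided by lineage, and the difference between them was not tested.

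Markers of cell types were read on the same array, because several members are known from more than one kind of myeloid cell. All 11 measured neutrophil markers lay at or above the 90th percentile, from 2374.74 (Itgam, which encodes CD11b) to 24857 (S100a9). Among all named genes, by the brightest probe set, 71.3% passed the floor and 14.8% reached the 90th percentile. Monocyte markers passed the floor in 5 of 5 cases, from 286.04 (Ccr2) to 10887 (Lyz2), and 3 of the 5 reached the 90th percentile. The dimmest of the 4 Ccr2 probe sets lay below the floor, at 9.84. Macrophage markers passed in 2 of 9 cases, Adgre1 at 1442.83 and C1qb at 365 (with its dimmest probe set below the floor), and the list ran from 17.09. Mrc1 and Cd163 were below the floor, as were Clec10a and Mgl2. Conventional dendritic cell markers passed in 6 of 7 cases by the brightest probe set and in 5 by the dimmest. None of these markers was at the 90th percentile, and the list ran from 32.24 (Xcr1) to 233.98 (Ccr7). Ly6c2 is not analysed here, so the Gr1 part of the phenotype label could not be checked through it.

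Lists for plasmacytoid dendritic cells, eosinophils, mast cells and basophils, and megakaryocytes and platelets had 0 genes at the 90th percentile. Those for NK cells, B cells, T cells and epithelial cells had 0 as well. Among all named genes 14.8% reached that level and 71.3% passed the floor. Floor counts were 3 of 3 for plasmacytoid dendritic cells, 2 of 4 for eosinophils and 3 of 5 for mast cells and basophils. They were 4 of 4 for megakaryocytes and platelets, 1 of 2 for NK cells and 4 of 4 for B cells. For T cells 3 of 4 genes passed, and for epithelial cells 3 of 5. The highest signal of all these lists was 445.38, for Bst2, and the epithelial list, which tumour cells could bring, ran from 21.57 to 158.91. What share of the receptor signals came from which of these cells was not tested.

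**Figure D5:**
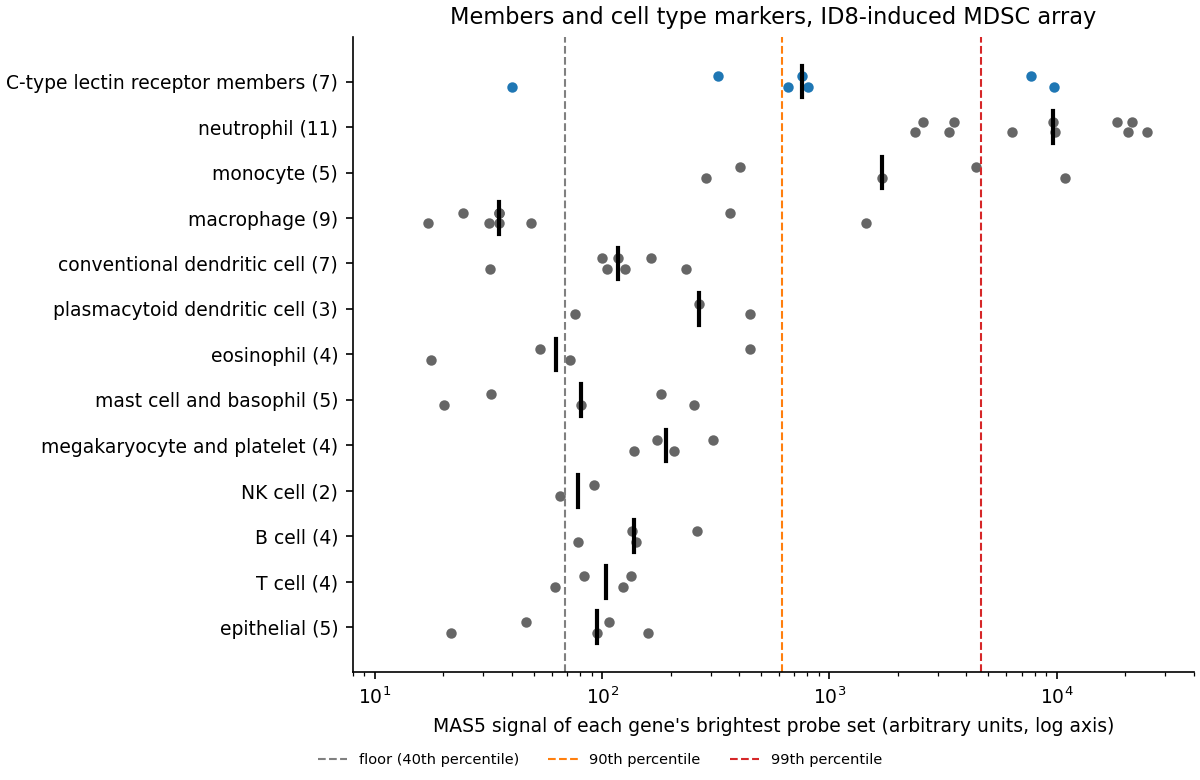
MAS5 signal of the brightest probe set of each gene (log axis, arbitrary units) for the 7 measured members (blue) and for lists of cell type markers (grey), with the number of measured genes in brackets. Black bars are medians and dashed lines the floor, the 90th and the 99th percentile. All 11 neutrophil markers lie past the 90th percentile, and 7 of 9 macrophage markers lie below the floor.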

How the data were processed

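RNA of 2 samples, 1 per group, was read on 1 Affymetrix array each, with biotinylated cRNA made from 6 ug of total RNA, per the labels' protocols. Signals were computed with MAS5, per the submitters' processing notes, with a version and scaling target not given in the sources used here. For each probe set the deposited table gives a linear signal intensity and no detection call, and its values were used unscaled.

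Each column was first checked for rises down its rows, and the control column was set aside. Gene symbols came from the platform annotation of GEO (34945 with 1 gene symbol, 932 with several, 9160 with none), and the Entrez IDs of 7 of 7 measured members matched the RefSeq table. Each member probe set was read separately. Genes of the other lists were represented by their brightest probe set, which raises genes with many probe sets. The members and lists were chosen with earlier results of these data known. All members are named, with the 4 brightest genes of each pathway list, its genes below the floor (at most 6) and listed neighbours of members; other genes were named after their values were seen. The alternatives comprised a lower (20th percentile) and a higher (60th percentile) floor, other ways of joining probe sets, percentiles among named probe sets and probe sets without a suffix letter. Promoters came from RefSeq for 6 of 8 members, the first listed start of each gene. The steps were tested on simulated data. Python 3.11.15, numpy 2.4.6, pandas 2.3.3 and matplotlib 3.10.9 were used.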

Additional observations from a re-analysis of the deposited data

Results flagged for a closer look

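One signal lies outside the values above. A probe set annotated to both Clec4a2 and its neighbour Clec4b1, and so left out by the rule of 1 gene symbol, read 695.42, at percentile 91. The probe sets of Clec4a2 alone read 322.14 and 83.26, and that of Clec4b1 alone 46.48. The shared probe set is given because it was left out of the analysis, and its signal exceeds each of those 3 values. To which gene its signal belongs was not tested.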

How the results depend on the processing

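The number of member probe sets above the floor was 9 of 10. It was 10 when the 20th percentile served as floor and 8 when the 60th did, where the dimmer Clec4a2 probe set dropped out too. It was 6 of 7 among probe sets without a suffix letter, which leave Clec4d and Clec4n with no value. The median member percentile of 91.3 ranged from 90.3 (among probe sets with 1 gene symbol) to 91.7 (brightest probe set per gene). Of 65 measured pathway genes 52 passed the floor, where 71.3% of all named genes did, a share counted at this floor only. The count of pathway genes ranged from 43 (60th percentile as floor) to 61 (20th percentile as floor) over the alternatives. Without Sap130, a choice made after seeing the data, it was 51 of 64. The count of other C-type lectin genes above the floor moved from 17 to 9 of 28 under the higher of these floors. Counts fall as a floor rises, and the share of all named genes was not counted at the 20th or 60th percentile. The move is therefore not read as a result about these genes. With the mean log2 signal per gene, Clec4e read 5440.33 and Clec4a2 163.77, each moved by over 1.5 times, since the mean includes the dimmer probe set. No paired analysis was possible because each group has 1 array and the labels give no replicate numbers. With 1 array no value has an error, and leaving out a replicate could not be done. No detection calls were used, so signals near the floor cannot be told from background.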
